A study of Homo sapiens and Mus musculus with 56 samples.

Results

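The ErbB receptors and their ligands were followed across 5 human glioblastoma lines treated with a MET inhibitor. The 10 listed genes were the receptors EGFR, ERBB2, ERBB3 and ERBB4, the EGF-like ligands EREG, AREG, HBEGF, TGFA and BTC, and the neuregulin NRG1, taken by symbol on the human arrays and by the same symbol in mouse case on the mouse arrays. A single-gene probe set named 9 of the 10 on each platform, among 18417 human and 19938 mouse genes in all. AREG was not analysed here. The study used Affymetrix whole-transcript gene arrays, 28 human and 28 mouse, and its title names a signature for MET-targeted therapy. Every array belonged to 1 of the lines SF295, U118, U87M2, DBM2 and U251M2, exposed for 7 days to V-4084, described in the labels as a selective MET kinase inhibitor, or to vehicle. Human arrays are labelled as cells treated in culture, with V-4084 kept as a 0.01 M stock in DMSO, against DMSO alone; at what concentration cells were exposed is not stated in the labels. Mouse arrays are labelled as subcutaneous flank tumours of 500000 inoculated cells in nude mice, which keep innate immune and stromal cells but lack normal T cells, given V-4084 at 30 mg/kg or its vehicle of 0.5% MC 400 and 0.05% Tween 80. Groups held 3 arrays, except for 2 with V-4084 and 2 with vehicle in SF295 on human arrays, 2 with V-4084 in U251M2 on mouse arrays and 2 with vehicle in SF295 on mouse arrays. No age or genotype beyond nude is used here.

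ErbB receptors are transmembrane tyrosine kinases that dimerise when a ligand binds and signal through the RAS-ERK and PI3K pathways. EGFR binds the EGF-like ligands, ERBB3 and ERBB4 bind neuregulins, ERBB2 has no known ligand and acts as a partner in dimers, and ERBB3 has little kinase activity of its own. The ligands are made as membrane proteins and are released by metalloproteases, and several of their genes are transcribed in response to ERK. In glioblastoma EGFR is often amplified, and ErbB receptors are known as a route by which tumour cells can get round inhibition of MET.

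EREG and HBEGF are the members whose level changed with V-4084 in U87M2, and the 250 bases before the RefSeq start of each gene (GRCh38.p14) are shown for that reason, 5′ to 3′ on the gene's own strand. Capitals mark the ETS-type motif AGGAAG, here as its reverse complement CTTCCT. The EREG stretch lies at chr4:74364895-74365144 on the plus strand and the HBEGF stretch at chr5:140346604-140346853 on the minus strand.
EREG: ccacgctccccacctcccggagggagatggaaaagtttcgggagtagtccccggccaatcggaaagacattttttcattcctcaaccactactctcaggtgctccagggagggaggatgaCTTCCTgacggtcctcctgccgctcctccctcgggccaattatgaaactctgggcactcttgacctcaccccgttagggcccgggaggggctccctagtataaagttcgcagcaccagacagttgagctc
HBEGF: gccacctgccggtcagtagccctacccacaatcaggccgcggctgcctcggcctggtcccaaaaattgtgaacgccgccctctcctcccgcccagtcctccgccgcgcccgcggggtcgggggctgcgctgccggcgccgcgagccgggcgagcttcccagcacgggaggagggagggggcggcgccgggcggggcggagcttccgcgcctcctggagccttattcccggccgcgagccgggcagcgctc
Motifs were searched on both strands as the AP-1 site TGANTCA, the CRE TGACGTCA, the ETS-type AGGAAG and the CArG box, and no 2 matches overlapped in these 2 stretches. EREG held 1 AGGAAG match, whose first base lay 130 bases before the start, and HBEGF held no match to any of the 4. Among 35116 promoters of the same length, AGGAAG was found in 28.713%, TGANTCA in 6.573%, TGACGTCA in 1.646% and CArG in 1.159%. In all, 10 upstream stretches of 8 of the 10 members were searched, and those of ERBB3 and NRG1 were not analysed here. TGANTCA was present in the stretch of ERBB2 and in 1 of the 2 stretches of EGFR. AGGAAG was not limited to EREG, being present also in the stretches of ERBB4 and AREG and in 1 of the 2 stretches each of EGFR and TGFA. TGACGTCA was present in the stretch of AREG.

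Medians of single arrays lay between 6.63 and 6.87 for the human and between 6.11 and 6.31 for the mouse platform (log2 intensity), and within-array SDs between 1.75 and 2.10 and between 1.76 and 1.88. The 3 human arrays of narrowest range were all V-4084 arrays. They were DBM2 repeat 2 (SD 1.75), U251M2 repeat 1 (SD 1.90) and SF295 repeat 2 (SD 1.90), against at least 2.02 on the other human arrays. The 3 human arrays titled DBM2 with V-4084 carry SF295 in other label fields and were placed by title. Of 9 glioma and neural stem markers, 6 lay on human arrays above the 95th percentile of 361 olfactory receptor genes (6.41), used as a rough mark of a dim probe set, and their mean was highest in U251M2, at 9.91 with V-4084 and 9.95 with vehicle. Skeletal muscle genes, which a glioma culture should lack, were above that mark for 4 of 8 on human arrays. Their mean deviation from the group mean followed that of the mouse array with the same line, treatment and repeat number over 27 such pairs (Pearson r = 0.93, permutation p = 1e-05, Spearman rho = 0.90, permutation p = 1e-05, the smallest that 100000 permutations can give, and r = 0.92 without the 2 farthest pairs). The same was computed for the 9 members, giving 10 relations in all. Human EREG and mouse Ereg gave Pearson r = 0.51 (permutation p = 0.00617, adjusted p = 0.0308) and Spearman rho = 0.53 (permutation p = 0.00442, adjusted p = 0.0221), with r = 0.52 without the 2 farthest pairs. EGFR gave r = 0.44 (permutation p = 0.0212, adjusted p = 0.0707), and no other member passed after adjustment. Deviations from the mean of a small group are tied to each other, so the 27 pairs are not independent. The permutation treated them as if they were, which makes these p-values too small, and the EREG relation is not taken as established. Whether the human arrays held RNA of the labelled cultures or of the flank tumours was not tested, and they are called human arrays throughout. Whether the V-4084 differences on them are those of cells in culture or of tumours in mice dosed at 30 mg/kg therefore cannot be told apart here. In bulk RNA, fewer cells of a type and less RNA per cell cannot be told apart.

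Across the 5 lines on human arrays, V-4084 was followed by a lower level of the ligand genes EREG and HBEGF in U87M2 and by no called change of any receptor. The receptor genes ERBB3 and ERBB4 averaged 5.59 and 5.55 with vehicle in U87M2, under the olfactory mark, where a fall would be hard to see. EREG, which encodes epiregulin, fell by 2.16 on the log2 scale in U87M2 (SE 0.16), a 4.48-fold lower level. HBEGF, which encodes heparin-binding EGF-like growth factor, fell by 0.62 (SE 0.17), a 1.54-fold lower level. No member was higher with V-4084 at an adjusted p under 0.05 in any line. Differences are V-4084 minus vehicle on the log2 intensity scale, which understates the change of dim genes. They come from limma fitted to all genes of the platform with Benjamini-Hochberg adjustment.

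In U87M2, 2 of the 9 measured members were called, both lower, against 15% of all genes called, 9.62% lower and 5.37% higher. With so few members, that count is not read as particular to the family. The median difference of the 9 members was 0.05, against 0.02 over all genes. No member was called in the remaining lines, where 0% (SF295), 0.755% (U118), 0% (DBM2) and 0% (U251M2) of all genes were called. The share in DBM2 moved with 1 array, from 0 genes to 4537 without V-4084 repeat 3, a fit that kept the narrow-range repeat 2. In SF295, leaving out V-4084 repeat 1 left 1 V-4084 array, the narrow-range repeat 2, so no count is given for that fit. Of the 45 member differences in the 5 lines, 6 had an unadjusted limma p under 0.05, including 2 in DBM2, 1 in SF295 and 3 in U87M2. The share of all genes at that unadjusted threshold is not given here, so the count is not read as particular to the members. Over the 5 lines with equal weight, EREG alone was called (log2 difference -0.39, SE 0.08, limma adjusted p = 0.00208), against 11.6% of genes called, 8.23% lower and 3.38% higher. That average rested on U87M2, since without that line it was 0.05 (limma adjusted p = 0.759).

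**Figure D1:**
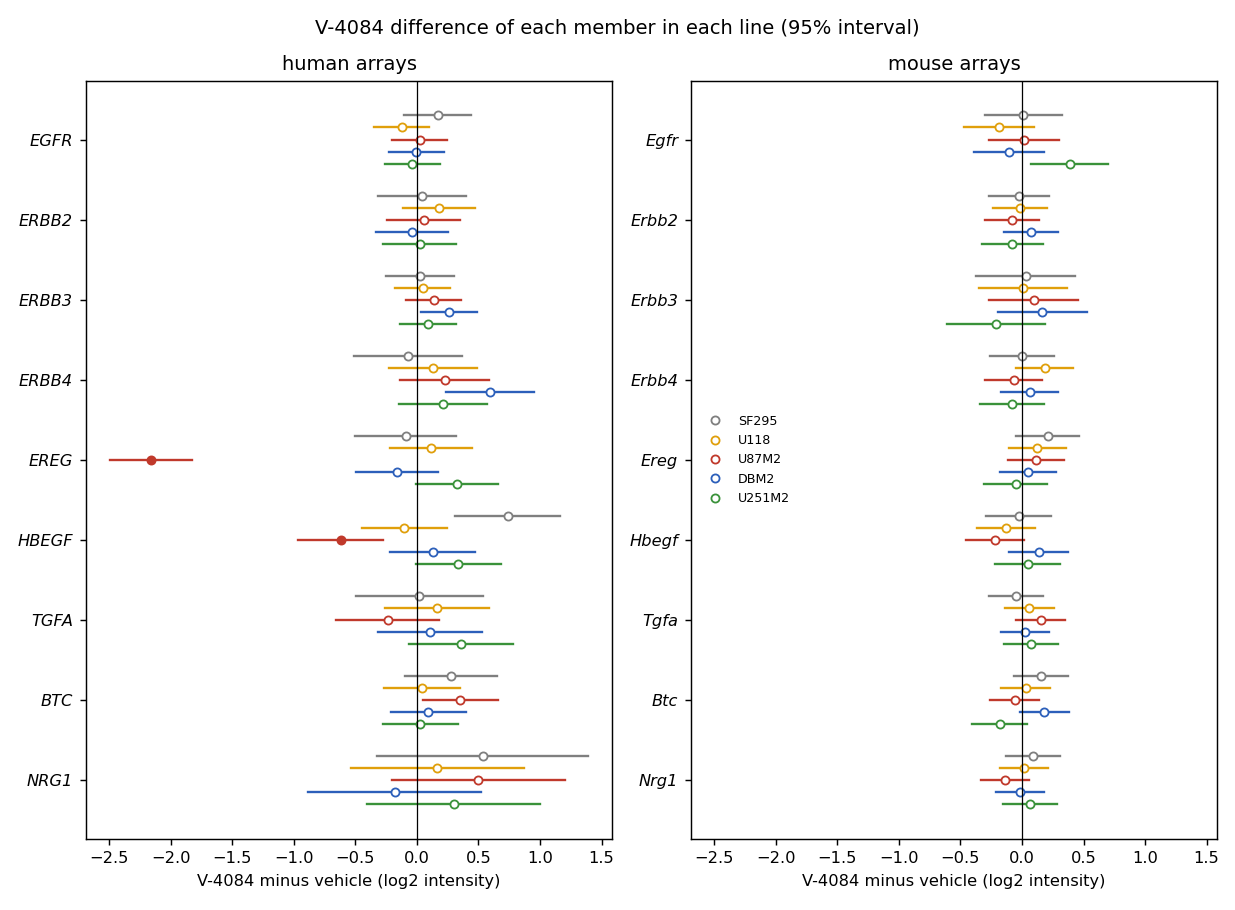
V-4084 minus vehicle (log2 intensity, x axis) for each member (y axis) in each of the 5 lines, on human arrays at left and mouse arrays at right; lines are 95% intervals from limma and filled points are called at an adjusted p under 0.05. The filled points are EREG at -2.16 and HBEGF at -0.62, both U87M2 on human arrays, and every mouse point lies between -0.22 and 0.39.

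The levels themselves separated the lines. On human arrays 8 of the 9 members differed between the vehicle groups (limma F test, adjusted p under 0.05), against 58.4% of all genes, so that share is described and not read as particular to the family. EGFR, ERBB2 and HBEGF lay above the olfactory receptor mark in all 10 groups, NRG1 in 8, EREG in 7, TGFA in 4, ERBB3 in 2, and ERBB4 and BTC in none. The 10 line pairs under vehicle were tested with limma as well. Among all genes, SF295 differed from U118 in 27.5%, from U87M2 in 30%, from DBM2 in 25.2% and from U251M2 in 26.7%. U118 differed from U87M2 in 31.3%, from DBM2 in 33.5% and from U251M2 in 32% of genes. U87M2 differed from DBM2 in 35% and from U251M2 in 36.9%, and DBM2 differed from U251M2 in 30.9% of genes.

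**Figure D2:**
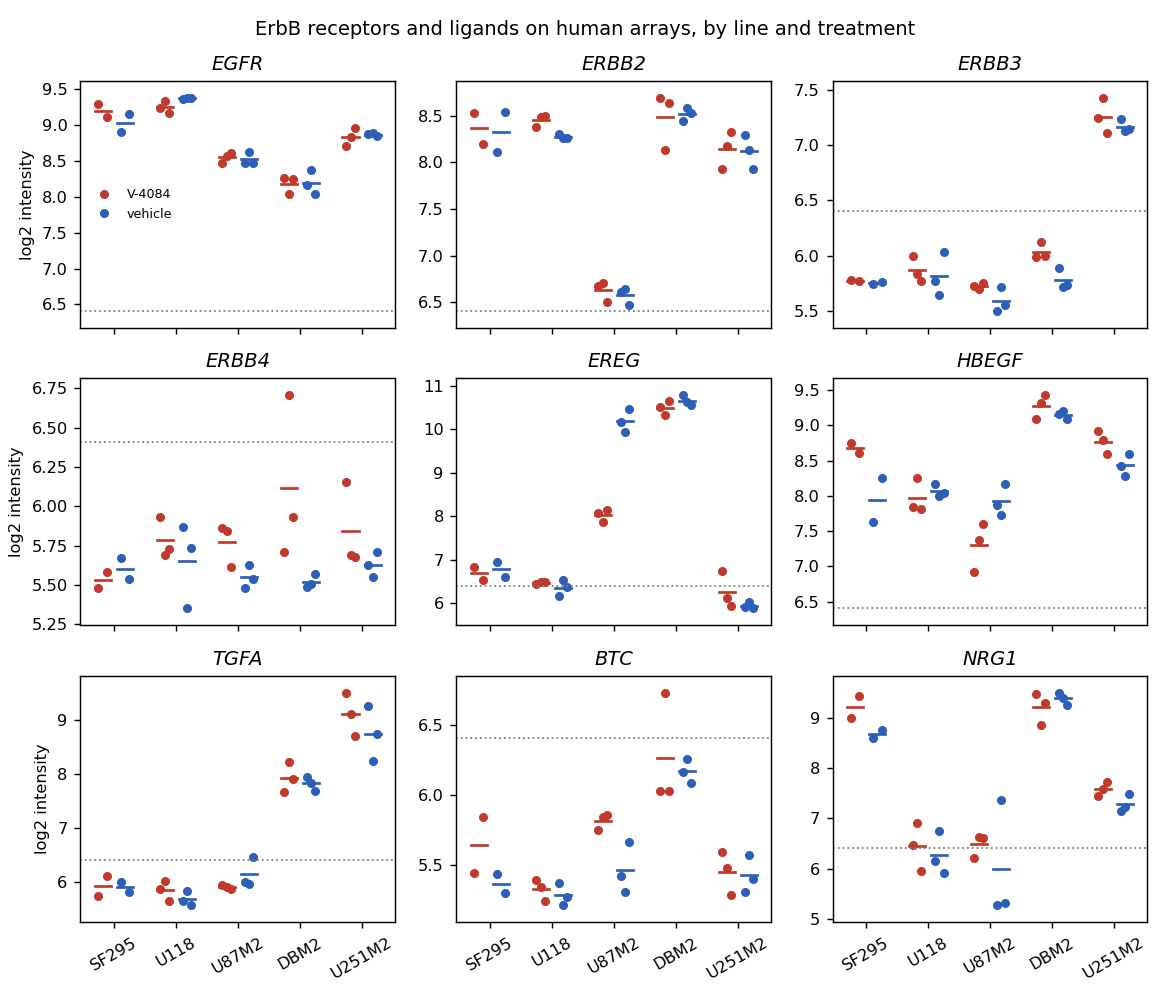
Log2 intensity (y axis) of each member on every human array, by line (x axis) and treatment, with the group mean as a bar and the olfactory receptor mark as a dotted line; each panel has its own y range. EREG in U87M2 is the panel where V-4084 and vehicle arrays stand farthest apart, and ERBB3 is above the dotted line in U251M2 alone.

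EGFR, the receptor of the EGF-like ligands, was the receptor most even across lines apart from ERBB4. EGFR in SF295 measured 9.29 and 9.11 with V-4084, against 8.90 and 9.16 with vehicle. EGFR in U118 measured 9.23, 9.33 and 9.17 with V-4084, against 9.36, 9.37 and 9.37 with vehicle. EGFR in U87M2 measured 8.47, 8.57 and 8.61 with V-4084, against 8.47, 8.63 and 8.47 with vehicle. The V-4084 and vehicle arrays overlapped in SF295 and U87M2, and in U118 the V-4084 arrays were the lower ones. EGFR in DBM2 measured 8.26, 8.04 and 8.25 with V-4084, against 8.16, 8.37 and 8.03 with vehicle. EGFR in U251M2 measured 8.71, 8.83 and 8.96 with V-4084, against 8.87, 8.89 and 8.84 with vehicle. Vehicle levels differed between lines (limma adjusted p = 3.65e-09), highest in U118 at 9.37 ± 0.0060 and lowest in DBM2 at 8.19 ± 0.17 (SD, n = 3 each). Of the 10 line pairs 9 were called, and SF295 and U251M2 did not differ beyond their spread (0.16, SE 0.12, limma adjusted p = 0.401). The V-4084 difference of EGFR ran from -0.12 in U118 to 0.17 in SF295, with 95% intervals that together span -0.35 to 0.44. In U87M2 the interval was -0.20 to 0.25.

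ERBB2, the ligandless dimer partner, was lower in U87M2 than in each of the other lines under vehicle. ERBB2 in SF295 measured 8.53 and 8.20 with V-4084, against 8.11 and 8.54 with vehicle. ERBB2 in U118 measured 8.38, 8.48 and 8.50 with V-4084, against 8.30, 8.26 and 8.26 with vehicle. All 3 V-4084 arrays of U118 lay above its vehicle arrays, yet the difference was 0.18 (SE 0.14, limma adjusted p = 0.650). ERBB2 in U87M2 measured 6.68, 6.71 and 6.51 with V-4084, against 6.61, 6.65 and 6.47 with vehicle. ERBB2 in DBM2 measured 8.69, 8.13 and 8.64 with V-4084, against 8.45, 8.59 and 8.53 with vehicle. ERBB2 in U251M2 measured 7.93, 8.18 and 8.32 with V-4084, against 8.30, 8.13 and 7.93 with vehicle. Every U87M2 array was below every array of the other lines. The vehicle groups differed (limma adjusted p = 1.31e-11), and 5 of 10 pairs were called, U87M2 below each other line and DBM2 above U251M2 by 0.40 (limma adjusted p = 0.0327). DBM2, SF295, U118 and U251M2 followed one another in that order, and neighbours in it did not differ beyond their spread. Without U87M2 the vehicle difference was lost (limma adjusted p = 0.179). V-4084 differences ran from -0.04 to 0.18, inside intervals of -0.33 to 0.47.

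ERBB3, the neuregulin receptor with weak kinase activity, stood above the olfactory mark in U251M2 only. ERBB3 in SF295 measured 5.78 and 5.77 with V-4084, against 5.74 and 5.76 with vehicle. ERBB3 in U118 measured 6.00, 5.83 and 5.77 with V-4084, against 5.77, 5.65 and 6.04 with vehicle. ERBB3 in U87M2 measured 5.73, 5.70 and 5.75 with V-4084, against 5.50, 5.72 and 5.55 with vehicle. None of these 3 lines reached the mark in any array. ERBB3 in DBM2 measured 5.99, 6.12 and 6.00 with V-4084, against 5.89, 5.71 and 5.73 with vehicle. ERBB3 in U251M2 measured 7.25, 7.43 and 7.11 with V-4084, against 7.24, 7.13 and 7.15 with vehicle. The vehicle groups differed (limma adjusted p = 3.01e-12), with 4 of 10 pairs called, which were U251M2 against each other line. In DBM2 the V-4084 arrays were all above the vehicle arrays, by 0.26 (SE 0.11, limma adjusted p = 0.147), below the mark. ERBB4, the other neuregulin receptor, was under the mark in all groups, did not differ between vehicle groups (limma adjusted p = 0.962) and ran from 5.52 to 6.11 by group. Its difference in DBM2 was 0.59 (SE 0.18, limma adjusted p = 0.111). One DBM2 array with V-4084, repeat 2, read 6.71 for ERBB4, against 5.71 and 5.93 on the other 2 with V-4084 and 5.49, 5.51 and 5.57 with vehicle. The same array had the narrowest range of values and the highest mean of skeletal muscle genes among human arrays, at 7.17, whose part in the ERBB4 value was not tested.

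EREG had the widest range of all members, 4.71 log2 units between its lowest and highest group. EREG in U87M2 measured 8.08, 7.87 and 8.14 with V-4084, against 10.18, 9.94 and 10.46 with vehicle. EREG in DBM2 measured 10.51, 10.33 and 10.64 with V-4084, against 10.78, 10.63 and 10.56 with vehicle. All V-4084 arrays of U87M2 were lower than all of its vehicle arrays by more than 1 log2 unit, while the DBM2 groups overlapped. EREG in SF295 measured 6.84 and 6.55 with V-4084, against 6.95 and 6.62 with vehicle. EREG in U118 measured 6.45, 6.49 and 6.48 with V-4084, against 6.17, 6.53 and 6.39 with vehicle. EREG in U251M2 measured 6.74, 6.12 and 5.95 with V-4084, against 5.92, 6.02 and 5.89 with vehicle. These 3 lines lay near or under the olfactory mark, and U251M2 had the lowest vehicle level. The U251M2 value of 6.74 came from V-4084 repeat 1, a narrow-range array, whose part in that difference was not tested. The vehicle groups differed (limma adjusted p = 4.13e-20) in the order DBM2, U87M2, SF295, U118 and U251M2, from 10.65 ± 0.12 to 5.94 ± 0.07 (SD, n = 3 each). Of the 10 pairs 9 were called, and SF295 and U118 did not differ beyond their spread (0.42, SE 0.18, limma adjusted p = 0.0896).

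With V-4084 in U87M2, EREG averaged 8.03, against 10.19 with vehicle, a difference of -2.16 (SE 0.16, limma adjusted p = 2.99e-10). In DBM2, the line with the highest EREG, the difference was -0.16 (95% interval -0.49 to 0.17, limma adjusted p = 0.515). The difference itself differed between lines for EREG (limma F test, adjusted p = 1.70e-07) and for HBEGF (limma F test, adjusted p = 0.0104), 2 of 9 members against 5.53% of all genes. The U87M2 difference of EREG minus the mean of the other 4 lines was -2.21 (SE 0.18, limma adjusted p = 4.20e-09, with 8.78% of genes called). Minus the difference of a single line it was -2.07 for SF295, -2.28 for U118, -2.00 for DBM2 and -2.49 for U251M2. All 4 were called by limma (largest adjusted p = 8.51e-06), against 5.09%, 3.3%, 6.79% and 6.41% of all genes. These 4 contrasts share the U87M2 arrays. The EREG call in U87M2 held in 9 other settings of the processing and with each of the 28 arrays left out, at -2.29 to -1.85. Leaving out an array of another line changes only the shared spread and not the difference.

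HBEGF was measured above the olfactory mark in every line. HBEGF in U87M2 measured 6.93, 7.38 and 7.60 with V-4084, against 7.86, 7.73 and 8.17 with vehicle. Its U87M2 groups did not overlap, the highest V-4084 array lying just under the lowest vehicle array. HBEGF in SF295 measured 8.75 and 8.60 with V-4084, against 7.63 and 8.25 with vehicle. HBEGF in DBM2 measured 9.09, 9.32 and 9.42 with V-4084, against 9.15, 9.20 and 9.09 with vehicle. In SF295 the V-4084 arrays were both above the vehicle arrays, by 0.74 (SE 0.21, limma adjusted p = 0.419), which did not pass. HBEGF in U118 measured 7.84, 8.26 and 7.81 with V-4084, against 8.17, 8.00 and 8.04 with vehicle. HBEGF in U251M2 measured 8.92, 8.79 and 8.59 with V-4084, against 8.43, 8.28 and 8.59 with vehicle. The U87M2 difference of -0.62 passed (SE 0.17, limma adjusted p = 0.0115). It was lost when arrays were scaled to equal median and spread, without U87M2 vehicle repeat 3 or without U87M2 V-4084 repeat 1, with differences from -0.77 to -0.43 over the arrays left out and a largest limma adjusted p of 0.128. The U87M2 difference minus the mean of the other lines was -0.90 (SE 0.19, limma adjusted p = 0.00223). Minus the difference of a single line, it was -1.36 for SF295 (limma adjusted p = 0.00206) and -0.96 for U251M2 (limma adjusted p = 0.0124), while DBM2 (limma adjusted p = 0.0552) and U118 (limma adjusted p = 0.363) did not pass. Vehicle levels differed (limma adjusted p = 1.67e-06), DBM2 being highest at 9.15 ± 0.06 (SD, n = 3). U118, SF295 and U87M2 did not differ from each other beyond their spread.

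TGFA, which encodes transforming growth factor alpha, was above the mark in U251M2 and DBM2. TGFA in SF295 measured 5.74 and 6.10 with V-4084, against 6.00 and 5.80 with vehicle. TGFA in U118 measured 5.87, 6.01 and 5.65 with V-4084, against 5.65, 5.83 and 5.56 with vehicle. TGFA in U87M2 measured 5.94, 5.90 and 5.86 with V-4084, against 5.99, 5.96 and 6.47 with vehicle. The U87M2 groups ran in the direction of EREG and HBEGF with a difference of -0.24, but the 95% interval was -0.66 to 0.18. TGFA in DBM2 measured 7.66, 8.23 and 7.90 with V-4084, against 7.95, 7.83 and 7.69 with vehicle. TGFA in U251M2 measured 9.51, 9.11 and 8.69 with V-4084, against 9.25, 8.24 and 8.73 with vehicle. Vehicle levels differed (limma adjusted p = 3.91e-13) and 7 of 10 pairs were called, with SF295, U118 and U87M2 not told apart. No V-4084 difference of TGFA was called, and they ran from -0.24 to 0.36.

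BTC, which encodes betacellulin, had a mean under the mark in all groups. BTC in SF295 measured 5.44 and 5.84 with V-4084, against 5.43 and 5.30 with vehicle. BTC in U118 measured 5.39, 5.35 and 5.24 with V-4084, against 5.37, 5.21 and 5.27 with vehicle. BTC in U87M2 measured 5.75, 5.84 and 5.86 with V-4084, against 5.42, 5.31 and 5.66 with vehicle. In U87M2 the 3 V-4084 arrays were above the 3 vehicle arrays, by 0.35 (SE 0.15, limma adjusted p = 0.122). That difference passed in other settings, among them the fit without 3 narrow-range arrays of other lines (limma adjusted p = 0.00871), at the same size. BTC in DBM2 measured 6.03, 6.73 and 6.03 with V-4084, against 6.16, 6.26 and 6.09 with vehicle. BTC in U251M2 measured 5.59, 5.48 and 5.28 with V-4084, against 5.31, 5.57 and 5.40 with vehicle. DBM2 had the highest vehicle level (limma adjusted p = 6.42e-05 over lines), and the 4 called pairs were DBM2 against each other line. DBM2 V-4084 repeat 2 was the highest array for BTC, as for ERBB4.

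NRG1, which encodes neuregulin 1, ranked the lines differently from EREG. NRG1 in SF295 measured 8.99 and 9.44 with V-4084, against 8.61 and 8.75 with vehicle. NRG1 in U118 measured 6.47, 6.91 and 5.95 with V-4084, against 6.16, 6.75 and 5.92 with vehicle. NRG1 in U87M2 measured 6.20, 6.62 and 6.62 with V-4084, against 5.27, 7.37 and 5.30 with vehicle. In U87M2, vehicle repeat 2 stood about 2 log2 units above the other vehicle arrays. NRG1 in DBM2 measured 9.47, 8.87 and 9.29 with V-4084, against 9.51, 9.41 and 9.26 with vehicle. NRG1 in U251M2 measured 7.45, 7.59 and 7.72 with V-4084, against 7.15, 7.22 and 7.49 with vehicle. Vehicle levels differed (limma adjusted p = 2.67e-09) in the order DBM2, SF295, U251M2, U118 and U87M2, with 8 of 10 pairs called. DBM2 and SF295, and U118 and U87M2, did not differ beyond their spread. The U87M2 difference of NRG1 was 0.50 (95% interval -0.20 to 1.20) and was not called. Without vehicle repeat 2 it was 1.20 (SE 0.23, limma adjusted p = 0.000767), and the average over lines was 0.40 (SE 0.10, limma adjusted p = 0.0137). A second NRG1 probe set read 5.99, 6.51 and 6.54 with V-4084 in U87M2, against 5.71, 6.89 and 5.75 with vehicle. Vehicle repeat 2 was the highest there too, so the separate reading was not limited to 1 probe set.

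Other genes of ErbB signalling were taken as lists, and calls on human arrays fell in U87M2 and the average, with 0 of these genes called in the other 4 lines. The U87M2 counts stand beside 15% of all genes called there, 5.37% higher and 9.62% lower. Of 5 further ligand genes in U87M2, EGF was higher by 0.47 (limma adjusted p = 0.00323) and NRG2 lower, at -0.80 (limma adjusted p = 1.73e-05), with a list median of 0.22 against 0.02 for all genes. Of 7 genes of ligand shedding, the metalloprotease ADAM12 was higher (0.75, limma adjusted p = 0.00189). The metalloprotease ADAM9 (-0.71, limma adjusted p = 0.0131) and RHBDF2, a partner of ADAM17 (-0.45, limma adjusted p = 0.0149), were lower. Of 9 genes listed as negative regulators 2 rose and 2 fell, and whether each acts that way in these lines was not tested. LRIG3, a transmembrane protein of the LRIG family, rose by 1.65 (limma adjusted p = 2.67e-08) and the ubiquitin ligase CBLB by 0.80 (limma adjusted p = 0.000387). ERRFI1, whose product binds and inhibits EGFR, fell by 1.10 (limma adjusted p = 9.57e-05) and the ubiquitin ligase CBL fell by 0.58 (limma adjusted p = 0.000636). Of 11 adaptor and signalling genes measured among 17 listed, the docking protein gene GAB1 (0.83, limma adjusted p = 0.000214) and the PI3K subunit gene PIK3R1 (0.48, limma adjusted p = 0.0193) rose. That count of 2 of 11 stands beside 15% of all genes called in either direction and 5.37% called higher.

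ERK output genes fell with EREG in U87M2. Of 18, 14 were lower and 0 higher, with a median of -1.12, beside the 9.62% of all genes called lower. The transcription factor gene FOSL1 fell by 2.08 (limma adjusted p = 3.91e-12) and EGR1 by 1.80 (limma adjusted p = 9.37e-08). The cytokine gene LIF fell by 1.57 (limma adjusted p = 2.99e-08) and SPRY2, a feedback inhibitor of receptor signalling, fell by 1.57 (limma adjusted p = 7.72e-07). MET itself fell by 1.06 (limma adjusted p = 3.13e-05), and HGF, its ligand, differed by -0.03 (limma adjusted p = 0.919). Over the 5 lines, 5 of the 18 were lower, beside 8.23% of all genes. Among them were SPRY2 at -0.40 (limma adjusted p = 0.00555), ETV5 at -0.36 (limma adjusted p = 0.0300), FOSL1 at -0.28 (limma adjusted p = 0.00221) and SPRY4 at -0.28 (limma adjusted p = 0.0151). These averages do not describe all lines, since without U87M2 the average called 0 of all genes. FOSL1 differed by -2.08 in U87M2, but by 0.06 in SF295, -0.08 in U118, 0.25 in DBM2 and 0.43 in U251M2. The average also called NRG2 (-0.25, limma adjusted p = 0.00578), ADAM9 (-0.38, limma adjusted p = 0.0107), the tyrosine phosphatase gene PTPN11 (-0.34, limma adjusted p = 0.0431) and MET (-0.35, limma adjusted p = 0.00454) lower. It called LRIG3 (0.34, limma adjusted p = 0.00521), CBLB (0.26, limma adjusted p = 0.0196) and SOCS5 (0.18, limma adjusted p = 0.0278), a suppressor of cytokine signalling, higher. LRIG3 differed by 1.65 in U87M2, against -0.27 in DBM2 and -0.21 in U251M2, and CBLB by 0.80 in U87M2, against 0.45 in SF295, 0.13 in U118, 0.015 in DBM2 and -0.09 in U251M2. Beside the U87M2 differences, the mean of 9 fibroblast markers was 10.22 to 10.24 with V-4084, against 8.98 to 9.37 with vehicle, and all 9 of 9 were called higher. In the other lines that mean ran from 7.65 to 11.06, and its part in the EREG and HBEGF differences was not tested.

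**Figure D3:**
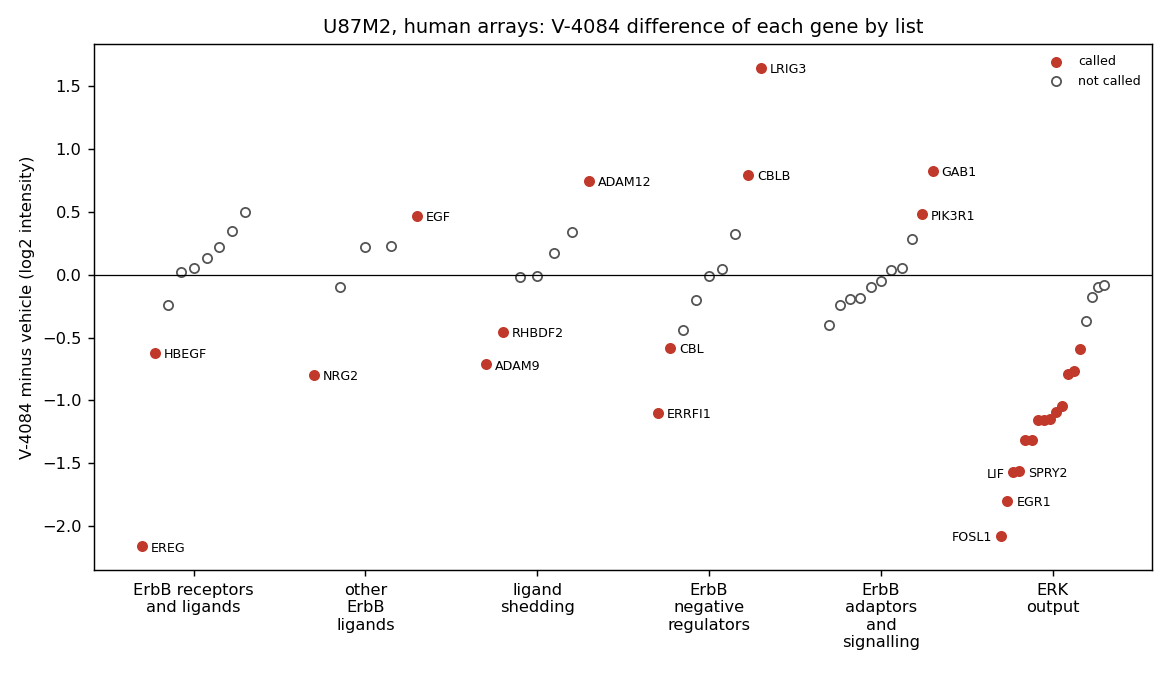
V-4084 minus vehicle in U87M2 on human arrays (log2 intensity, y axis) for each gene of 6 lists (x axis), ordered by size within a list; filled points are called at an adjusted p under 0.05, with up to 4 named per list. EREG and HBEGF are the filled points among the members, and the filled ERK output points are all below 0.

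Over the 10 human group means, the genes most like each member were described by Pearson's r without a test, since the points share lines and arrays. EREG was most like AIM2, a DNA sensor gene (r = 0.99), TGM2, a transglutaminase gene (r = 0.98), and QDPR (r = 0.98). HBEGF was most like CLDN20 (r = 0.94), LIF-AS2 (r = 0.94) and TPH1 (r = 0.93). These genes lay under the olfactory mark in every group, with highest group means of 5.51, 6.34 and 5.03. EGFR was closest to SIK2, CAMK1D and NKAPD1 (r from 0.97 to 0.98) and ERBB2 to ZNF354A, NRSN2 and ZFP82 (r from 0.98 to 0.99). ERBB3 was closest to DDX4, GNG7 and EDN1 (r = 0.99 for each). TGFA was closest to FREM2, EFEMP1 and POU3F2 (r = 0.99 for each). NRG1 was closest to ZNF793, ZNF518B and RNF152 (r from 0.98 to 0.99). DDX4 and ZNF793 were also under the mark in every group, at most 5.70 and 6.07.

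On the mouse arrays no member was called with V-4084 in any line or in the average. Of all genes, 3.72% were called with V-4084 for U87M2, 2.49% higher and 1.22% lower. The share was 0.01% for SF295, 0.01% for U118, 0% for DBM2, 0.0401% for U251M2 (0.0251% higher and 0.015% lower), 0.0702% for the average and 0.341% for differences between lines. Of the 45 member differences, 1 had an unadjusted limma p under 0.05. It was Egfr in U251M2, at 0.39 (SE 0.15, limma adjusted p = 0.304). Here too the share of all genes at the unadjusted threshold is not given, and the count is not read further. In U87M2, Ereg differed by 0.11 (95% interval -0.12 to 0.34) and Hbegf by -0.22 (95% interval -0.46 to 0.01). Levels on the 2 platforms come from different probes and were not set against each other.

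The olfactory mark on mouse arrays was 6.07 over 1027 genes. Egfr, Erbb2, Erbb3, Hbegf, Tgfa and Nrg1 lay above it in all 10 groups, Btc in 4, and Erbb4 and Ereg in none. Vehicle groups differed for 6 of 9 members, against 54.3% of all genes (limma F test), and no member spanned more than 0.76 log2 units between groups. In pairs of vehicle groups, SF295 differed from U118 in 7.01% of all genes, from U87M2 in 36.2%, from DBM2 in 31.8% and from U251M2 in 40.1%. U118 differed from U87M2 in 31%, from DBM2 in 26.7% and from U251M2 in 35.1%. U87M2 differed from DBM2 in 9.35% and from U251M2 in 5.56%, and DBM2 from U251M2 in 4.29% of genes.

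**Figure D4:**
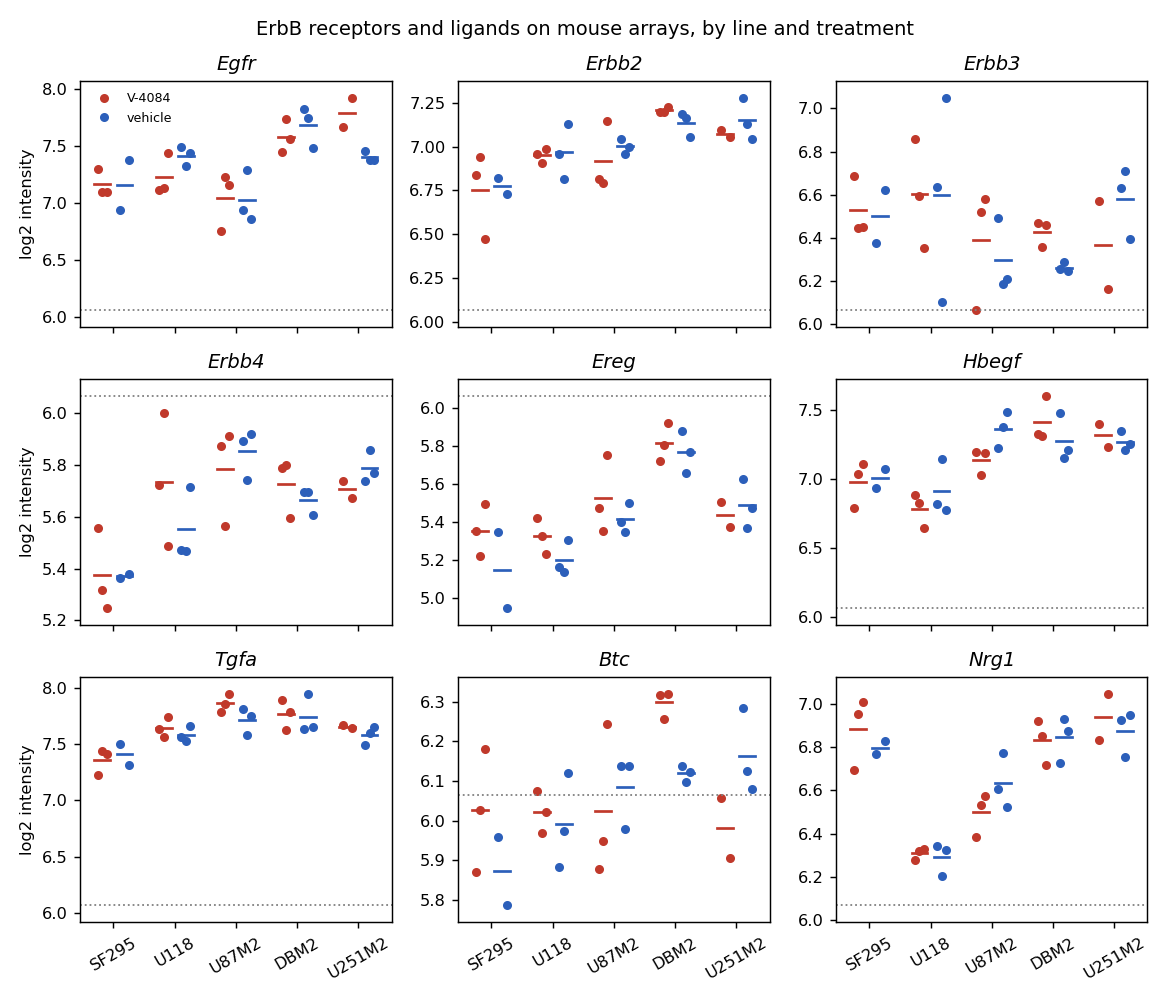
Log2 intensity (y axis) of each member on every mouse array, by line (x axis) and treatment, with the group mean as a bar and the olfactory receptor mark as a dotted line; each panel has its own y range. Ereg and Erbb4 stay under the dotted line on every array, and Nrg1 is lowest in U118.

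Egfr was highest in DBM2 and lowest in U87M2 under vehicle (limma adjusted p = 0.00367, and 0.0552 without DBM2). Egfr in SF295 measured 7.30, 7.10 and 7.10 with V-4084, against 6.94 and 7.38 with vehicle. Egfr in U118 measured 7.12, 7.14 and 7.44 with V-4084, against 7.49, 7.32 and 7.44 with vehicle. Egfr in U87M2 measured 6.76, 7.23 and 7.16 with V-4084, against 6.95, 7.29 and 6.86 with vehicle. In these lines the V-4084 and vehicle arrays overlapped. Egfr in DBM2 measured 7.45, 7.74 and 7.57 with V-4084, against 7.83, 7.75 and 7.49 with vehicle. Egfr in U251M2 measured 7.67 and 7.92 with V-4084, against 7.46, 7.38 and 7.38 with vehicle. Both U251M2 arrays with V-4084 were above its 3 vehicle arrays. Of the 10 vehicle pairs, 3 were called, DBM2 above SF295, DBM2 above U87M2 and U118 above U87M2.

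Erbb2 passed narrowly between vehicle groups (limma adjusted p = 0.049979). Erbb2 in SF295 measured 6.84, 6.94 and 6.47 with V-4084, against 6.82 and 6.73 with vehicle. Erbb2 in U118 measured 6.96, 6.91 and 6.99 with V-4084, against 6.96, 6.82 and 7.13 with vehicle. Erbb2 in U87M2 measured 6.81, 6.79 and 7.14 with V-4084, against 7.04, 6.96 and 7.00 with vehicle. The call was lost when any of 22 of the 28 arrays was left out. Erbb2 in DBM2 measured 7.20, 7.20 and 7.23 with V-4084, against 7.19, 7.16 and 7.05 with vehicle. Erbb2 in U251M2 measured 7.10 and 7.05 with V-4084, against 7.28, 7.13 and 7.05 with vehicle. SF295 was below DBM2 and U251M2, the 2 called pairs, and V-4084 differences ran from -0.08 to 0.07. Erbb3 ran from 6.26 to 6.60 by group and did not pass between vehicle groups (limma adjusted p = 0.250), except without U118 vehicle repeat 2 (limma adjusted p = 0.0262).

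Erbb4 stayed below the mark, and its vehicle groups differed (limma adjusted p = 0.0151), but not after quantile normalization, scaling to equal median and spread, or leaving out either SF295 vehicle array (limma adjusted p up to 0.0539 without one of them). Erbb4 in SF295 measured 5.56, 5.32 and 5.25 with V-4084, against 5.36 and 5.38 with vehicle. Erbb4 in U118 measured 5.72, 6.00 and 5.49 with V-4084, against 5.47, 5.47 and 5.72 with vehicle. Erbb4 in U87M2 measured 5.87, 5.57 and 5.91 with V-4084, against 5.89, 5.74 and 5.92 with vehicle. SF295 had the lowest vehicle arrays of these 3 lines. Erbb4 in DBM2 measured 5.79, 5.80 and 5.59 with V-4084, against 5.70, 5.69 and 5.61 with vehicle. Erbb4 in U251M2 measured 5.74 and 5.67 with V-4084, against 5.74, 5.86 and 5.77 with vehicle. V-4084 differences ran from -0.08 to 0.18.

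Ereg was below the mark in every group and highest in DBM2. Ereg in SF295 measured 5.35, 5.22 and 5.49 with V-4084, against 5.35 and 4.95 with vehicle. Ereg in U118 measured 5.42, 5.32 and 5.23 with V-4084, against 5.16, 5.14 and 5.30 with vehicle. Ereg in U87M2 measured 5.47, 5.35 and 5.75 with V-4084, against 5.40, 5.35 and 5.50 with vehicle. The V-4084 arrays of U87M2 were not lower than its vehicle arrays, while human EREG fell there. Ereg in DBM2 measured 5.72, 5.81 and 5.92 with V-4084, against 5.88, 5.66 and 5.77 with vehicle. Ereg in U251M2 measured 5.51 and 5.37 with V-4084, against 5.63, 5.37 and 5.47 with vehicle. Vehicle groups differed (limma adjusted p = 0.000695, and 0.0588 without DBM2), and 5 of 10 pairs were called, DBM2 against SF295, U118 and U87M2 and U251M2 against SF295 and U118. Whether human EREG RNA reaches the mouse probe set was not tested.

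Hbegf was lowest in U118 and highest in U87M2 under vehicle (limma adjusted p = 0.00880). Hbegf in SF295 measured 6.79, 7.03 and 7.11 with V-4084, against 6.93 and 7.07 with vehicle. Hbegf in U118 measured 6.88, 6.82 and 6.64 with V-4084, against 6.82, 7.14 and 6.77 with vehicle. Hbegf in U87M2 measured 7.19, 7.03 and 7.19 with V-4084, against 7.22, 7.37 and 7.48 with vehicle. In U87M2 the V-4084 arrays were all below the vehicle arrays, by 0.22 (SE 0.11, limma adjusted p = 0.380). Hbegf in DBM2 measured 7.32, 7.31 and 7.60 with V-4084, against 7.47, 7.15 and 7.21 with vehicle. Hbegf in U251M2 measured 7.40 and 7.23 with V-4084, against 7.34, 7.21 and 7.25 with vehicle. The 4 called pairs were U87M2 above SF295 and U118, and DBM2 and U251M2 above U118.

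Nrg1 separated U118 from the other lines (limma adjusted p = 8.62e-05). Nrg1 in SF295 measured 6.70, 6.96 and 7.01 with V-4084, against 6.77 and 6.83 with vehicle. Nrg1 in U118 measured 6.28, 6.32 and 6.33 with V-4084, against 6.34, 6.20 and 6.32 with vehicle. Nrg1 in U87M2 measured 6.39, 6.53 and 6.58 with V-4084, against 6.61, 6.78 and 6.52 with vehicle. U118 lay below every other line, and the 4 called pairs were U118 against each of them. Nrg1 in DBM2 measured 6.92, 6.86 and 6.72 with V-4084, against 6.73, 6.93 and 6.88 with vehicle. Nrg1 in U251M2 measured 6.84 and 7.05 with V-4084, against 6.93, 6.76 and 6.95 with vehicle. V-4084 differences of Nrg1 ran from -0.14 to 0.09. Tgfa ran from 7.36 to 7.87 by group (limma adjusted p = 0.0610 between vehicle groups) and Btc from 5.87 to 6.30 (limma adjusted p = 0.128), and neither passed. Tgfa did pass with array weights, with dim genes left out, under both other normalizations and without U87M2 vehicle repeat 2 or DBM2 vehicle repeat 1 (limma adjusted p from 0.0251 to 0.0473).

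Among the pathway lists on mouse arrays, genes were called in U87M2 and in no other single line. Of 9 genes listed as negative regulators, Lrig2 rose (0.48, limma adjusted p = 0.0125), and its action on ErbB receptors was not tested. Of 14 measured adaptor and signalling genes, Gab1 (0.56, limma adjusted p = 0.000631) and Pik3r1 (0.43, limma adjusted p = 0.0421) rose. Of 18 ERK output genes 8 were lower and 0 higher, with a median of -0.36, beside 1.22% of all genes called lower, among them the feedback inhibitors Spry4 (-0.85, limma adjusted p = 0.000263) and Spry2 (-0.77, limma adjusted p = 6.75e-05). The cyclin gene Ccnd1 fell by 0.65 (limma adjusted p = 0.000521) and the transcription factor gene Myc fell by 0.56 (limma adjusted p = 0.0111). On human arrays of U87M2, GAB1, PIK3R1 and the median of the ERK output genes moved in the same directions. Whether human tumour RNA reaches the mouse probe sets of these genes was not tested, so the differences are not assigned to host cells. On mouse arrays, none of the 5 other ligand genes or 7 shedding genes was called. Met differed by 0.17 (limma adjusted p = 0.352) and Hgf by 0.30 (limma adjusted p = 0.238). Some host cell markers were called in the same comparison, beside 2.49% of all genes called higher and 1.22% lower. Their part in the ERK output differences was not tested. Of 9 fibroblast markers 0 were called, with a mean of 9.14 with V-4084, against 8.77 with vehicle, in groups that overlapped. Of 8 endothelial markers 2 were called higher and 1 lower, and of 7 macrophage and monocyte markers 1 was called higher. The mean of 9 skeletal muscle genes was 6.66 to 6.86 with V-4084, against 6.87 to 7.90 with vehicle, with 0 called and a median difference of -0.68. The mean of 7 adipocyte genes over the arrays of a group was 7.31 with V-4084, against 6.65 with vehicle, in groups that overlapped, with 0 called and a median difference of 0.71.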

How the data were processed

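Total RNA was measured on 28 human and 28 mouse whole-transcript gene arrays in 5 glioblastoma lines under V-4084 or vehicle. Deposited values are log2 intensities per probe set, made with RMA and Partek per the submitters' processing notes, with versions not given in the sources used here. They were used as deposited. Probe sets naming 1 gene by the platform annotation were kept (19460 of 33297 human, 21789 of 35556 mouse), and where a gene had more than 1, that of highest mean stood for it. Groups came from titles.

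In each platform the 10 group means were fitted with limma 3.58.1 (R 4.3.3, 18 residual degrees of freedom), giving V-4084 minus vehicle per line, their average, and F tests of differences between lines and of vehicle levels. Two-sided p-values were adjusted over all genes of a contrast by Benjamini-Hochberg, with calls at an adjusted p under 0.05. The script was tested on simulated data. Same-numbered arrays did not deviate together throughout (r from -0.52 to 0.32 on human and -0.35 to 0.30 on mouse arrays), so numbers were not treated as pairs. Repeats are not stated to be separate cultures or animals, so p-values describe the spread between arrays, whose number limits precision. The contrasts of U87M2 with other lines and the comparison of same-numbered arrays across platforms were added after values were seen. Members and lists were chosen with earlier results of these data known. All 10 listed members are accounted for, those called in a V-4084 contrast or for vehicle levels with every array; up to 4 called genes per list, MET and HGF, and the 3 most alike genes per member spanning at least 1 log2 unit are named. Alternatives were another spread estimate, 2 normalizations, array weights, mean of probe sets, no dim genes, single-line fits, a replicate block, left-out arrays or lines and 3 narrow-range arrays left out.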

Additional observations from a re-analysis of the deposited data

Results flagged for a closer look

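The V-4084 difference on human arrays differed between the 5 lines for EREG (limma F test, adjusted p = 1.70e-07). The log2 difference of EREG was -2.16 in U87M2, while the other 4 lines ran from -0.16 in DBM2 to 0.33 in U251M2. HBEGF also differed between lines (limma F test, adjusted p = 0.0104), from -0.62 in U87M2 to 0.74 in SF295. Single arrays were not checked against their group, since that check was kept for groups of 4 or more arrays and these groups held 2 or 3.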

How the results depend on the processing

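With 2 or 3 arrays a group, a difference of a dim member is not well measured on these arrays, and calls near the threshold moved with single arrays. Of the results for single members under the alternatives, 5203 kept their side of the threshold, 38 lost the threshold and 18 gained it. A further 1 reversed, the average of EREG on human arrays, which was 0.047 without U87M2. A change of direction was counted only where a result passed in the main or the other fit, so uncalled differences may have changed sign. Scaling arrays to equal median and spread left 1 member called in U87M2 (against 2) and 0 in the average (against 1). Array weights called 4 members in U87M2 (BTC and ERBB4 added) and 1 in U118 (ERBB4, against 0). Without U87M2 the average and the differences between lines called 0 members on human arrays (against 1 and 2). Without DBM2 the vehicle levels on mouse arrays called 3 members (against 6). Leaving out single arrays gave 1 to 3 members in U87M2, 0 to 1 in DBM2 (ERBB4, 0.69 without V-4084 repeat 3), 1 to 2 in the average on human arrays and 4 to 6 for mouse vehicle levels, which ran from 3 to 7 over the other settings. The average gained NRG1 without U87M2 vehicle repeat 2 and ERBB4 without DBM2 V-4084 repeat 1 or repeat 3. The cause was not tested.

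Counts over all genes moved more. In human U87M2 the 2760 genes called became 2120 to 6779 over settings and 1750 to 3552 over left-out arrays. In human U118 the 139 became 30 to 7825 over settings and 2 to 265 over left-out arrays, in human DBM2 the 0 became 0 to 4537, in human SF295 the 0 became 0 to 1918 over left-out arrays and in human U251M2 the 0 became up to 54 over settings. For the human average the 2138 became 0 to 4146, and for differences between human lines the 1019 became 0 to 4088. In mouse U87M2 the 741 became 372 to 1224, for differences between mouse lines the 68 became 0 to 208, and the other mouse V-4084 counts stayed at 53 or fewer. The repeat number as a block (replicate block) changed none of the 14 counts of called members it was run for, which stayed at 2 in U87M2, with 2140 genes called there, 30 in U118, 1130 in the human average and 587 for differences between human lines. The numbers were not taken as pairs.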
